A study of Homo sapiens with 6 samples.

Results

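The 10 genes described here are the transforming growth factor beta (TGF-beta) and activin ligand genes TGFB1, TGFB2 and INHBA, the TGF-beta receptor genes TGFBR1 and TGFBR2, the signal transducer genes SMAD2, SMAD3 and SMAD4, and the inhibitor genes SMAD7 and SKIL. They were taken by symbol from the 37871 genes of the count table, all 10 were found, and all 10 were among the 19170 genes with enough counts to be tested. The cells were T24, a cultured line established from a human bladder cancer and labelled epithelial, and their RNA was sequenced after lipopolysaccharide (LPS, a bacterial cell wall component) plus nigericin (a potassium ionophore) or after vehicle, with 3 libraries in each group. No group had LPS alone or nigericin alone in the labels, so no difference can be assigned to 1 of the agents. The sources used here give no dose, no length of treatment and no composition of the vehicle. They name more than 1 company for the RNA extraction without saying which handled which library, so a company and the treatment cannot be told apart. Nothing says whether each library had a culture of its own, and p-values therefore measure only the spread between these libraries, which may be technical.

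TGF-beta and activin ligands are dimers that bring a type II receptor kinase together with a type I receptor kinase. The type I receptor phosphorylates SMAD2 and SMAD3, which join SMAD4 and enter the nucleus to regulate genes with partner factors. SMAD7 blocks the type I receptor, SKIL (SnoN) represses at SMAD-bound genes, and both are themselves known targets of the pathway. In epithelial cells the pathway is known for growth arrest and for the shift towards a mesenchymal state, and TGF-beta is made as a latent complex that must be activated outside the cell.

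After LPS plus nigericin TGFB2 was 4.68-fold and INHBA 3.63-fold higher than in vehicle, or 2.57-fold and 1.85-fold after GC and length correction, in which each library's trend with GC content and transcript length was removed. Both passed the test under all 19 alternative analyses. TGFB1 was lower (log2 fold change -0.80), but at 0.007 after the same correction. Of the 10 genes, 7 rose in the uncorrected values (TGFB2, INHBA, TGFBR1, TGFBR2, SMAD2, SMAD4 and SKIL) and 1 fell (TGFB1). SMAD3 and SMAD7 did not pass the threshold there. With the correction SMAD4 and SKIL were not called, and SMAD2 and SMAD3 were lower. The threshold was a Benjamini-Hochberg adjusted p under 0.05 from the edgeR quasi-likelihood test over all tested genes. Of all tested genes 55.3% were called by it, 28.9% higher and 26.4% lower. The median log2 fold change was 0.91 over the 10 genes and 0.002 over all tested genes. These medians were 0.096 and -0.063 after GC and length correction.

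Across the 18620 tested genes with a GC content, the log2 fold change was correlated with it (Spearman -0.438, across genes, which are not independent replicates). Removing each library's trend with GC content and transcript length, which also removes treatment effects that run along them, left 4 of the 10 higher (TGFB2, INHBA, TGFBR1 and TGFBR2) and 2 lower (SMAD3 and SMAD2, the second of which was higher without it). With that correction 50.4% of those 18620 genes were called, 23.6% higher and 26.8% lower.

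The libraries held 66180407 to 86594539 counts after LPS plus nigericin and 81917343 to 89152224 in vehicle. Across all tested genes, the deviation of each library from the average library showed Spearman correlations with GC content of -0.448 to -0.346 in the treated libraries against 0.145 to 0.516 in the vehicle libraries. Vehicle library 2 had the highest value. It was also the lowest vehicle library for 8 of the 10 genes and the highest for the other two, TGFB1 and SMAD3. Of the epithelial markers, KRT7, KRT8, KRT18 and KRT19 were abundant, while CDH1 (E-cadherin) had 0 counts in 5 libraries and 6 in the third treated one. Of the 15 epithelial and urothelial markers 8 were tested, 0 were higher and 6 lower (75.0%, beside 26.4% of all tested genes). After GC and length correction 0 were higher and 5 lower, KRT7 was at 0.08 and not called, and the median went from -1.175 to -0.56. The part of these markers in the results was not tested. The summed level of these epithelial and urothelial markers was 3522 to 4525 CPM (counts per gene scaled to library size) after treatment and 6561 to 9556 CPM in vehicle, and that of the markers of other cell types was 7.18 to 8.52 CPM and 11.0 to 18.0 CPM. PTPRC, the leukocyte marker, was at or near 0 in all 6 libraries. In bulk RNA, fewer cells with a transcript and less of it in each cell cannot be told apart.

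**Figure D1:**
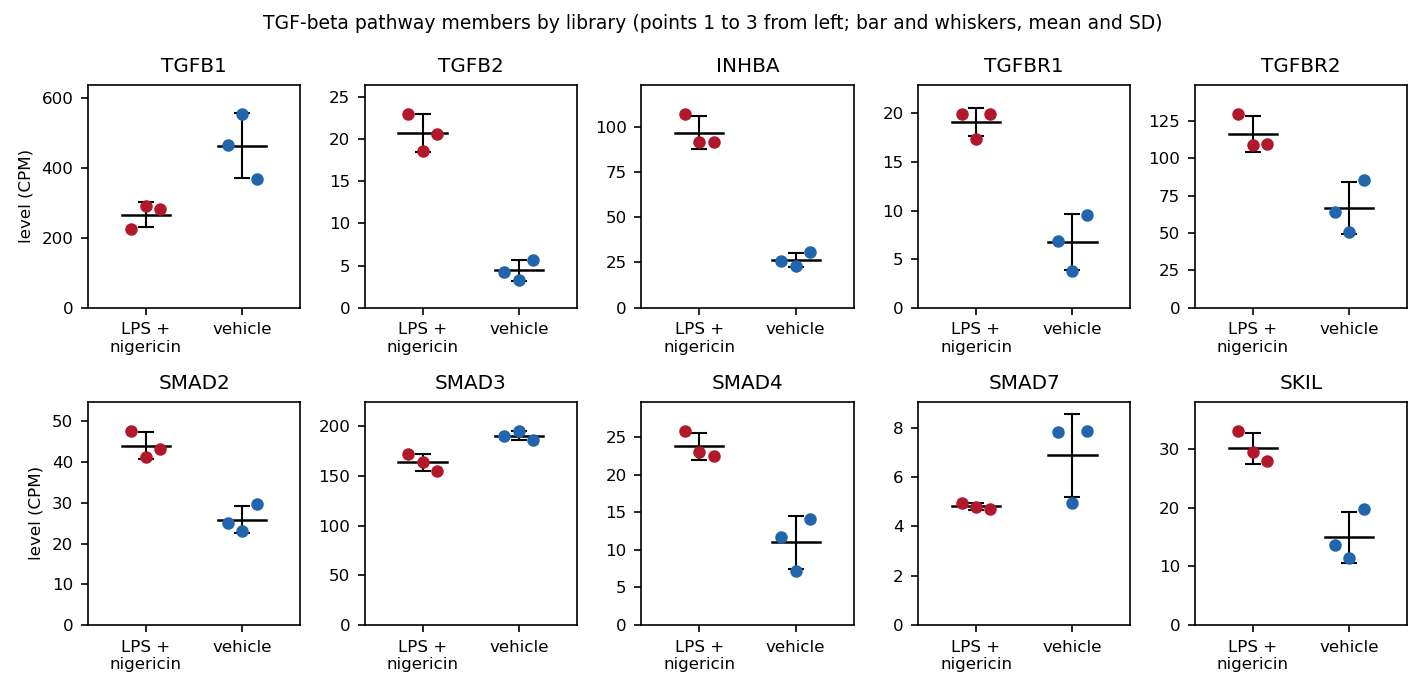
Level of each gene in each library in CPM (vertical axes, from 0), with LPS plus nigericin left of vehicle. Each point is 1 library, and the bars and whiskers are the mean and SD of 3. The groups overlap for SMAD7 alone.

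Per kilobase of the longest annotated transcript, TGFB1 was the most abundant of the 10 in both groups, at 96.4 ± 12.7 CPM per kilobase after treatment and 167.5 ± 33.8 CPM per kilobase in vehicle (SD, n = 3). SMAD3 (26.2 ± 1.32) and TGFBR2 (25.1 ± 2.58) followed after treatment and did not differ beyond their spread, and INHBA stood at 15.9 ± 1.5 CPM per kilobase. Below them SKIL (4.21 ± 0.370) and TGFB2 (4.10 ± 0.437) lay within each other's spread, as did TGFBR1 (2.93 ± 0.225) and SMAD4 (2.71 ± 0.206), and SMAD2 (1.28 ± 0.0961) and SMAD7 (1.09 ± 0.0306) were lowest. In vehicle the order after TGFB1 was SMAD3 (30.5 ± 0.717), TGFBR2 (14.4 ± 3.76), INHBA (4.39 ± 0.641) and SKIL (2.09 ± 0.605). SMAD7 (1.55 ± 0.379), SMAD4 (1.26 ± 0.402), TGFBR1 (1.04 ± 0.441), TGFB2 (0.874 ± 0.246) and SMAD2 (0.750 ± 0.0986) followed in vehicle, with neighbours within their spread. By its mean TGFB2 thus stood sixth of the 10 after treatment and ninth in vehicle, but the spread of its neighbours leaves these places unresolved. These levels depend on the transcript chosen. With the transcript of median length in GENCODE's basic set, SMAD3 was at 107 CPM per kilobase after treatment and 124.6 in vehicle. TGFB1 was then at 96.4 and 167.5, so the mean of SMAD3 was the higher after treatment, within the spread of TGFB1. SMAD2, whose longest transcript has 34526 bases against 10445 for the median one, was at 4.21 and 2.48, and TGFB2 at 4.17 and 0.889. INHBA was then at 48.3 and 13.3, above TGFBR2 (25.2) after treatment but not in vehicle (14.5). SKIL was at 10.96 and 5.43, above TGFB2 in both groups. By their means SMAD4 (2.80) and TGFBR1 (3.34) were then lowest after treatment, below SMAD7 (3.76) and SMAD2.

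Among the ligands, TGFB2, which encodes TGF-beta 2, had 23.0, 18.6 and 20.6 CPM after LPS plus nigericin, against 4.29, 3.24 and 5.72 CPM in vehicle. Every treated library was above every vehicle library. The log2 fold change was 2.23 (SE 0.226, 95% interval 1.71 to 2.75, edgeR adjusted p = 2.14e-04), above that of 94.3% of all tested genes. INHBA encodes the inhibin beta A chain, which pairs with itself to form activin A. It was at 107, 91.5 and 91.3 CPM in treated libraries and 26.1, 23.0 and 30.7 CPM in vehicle libraries. The groups were far apart against a spread of 9.11 CPM (treated) and 3.89 CPM (vehicle), and the log2 fold change was 1.86 (SE 0.146, 95% interval 1.53 to 2.20, edgeR adjusted p = 8.1e-05).

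TGFB1, which encodes TGF-beta 1, fell to 227, 291 and 284 CPM after treatment, against 466, 556 and 369 CPM in vehicle, although it stood at 0.007 after GC and length correction. The groups did not overlap, but the lowest vehicle library lay closer to the highest treated library than to the highest vehicle library. The log2 fold change was -0.80 (SE 0.173, 95% interval -1.20 to -0.40, edgeR adjusted p = 0.00566).

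Within a library the ratio of the counts of 2 genes does not depend on library scaling. For each TGFB1 count there were 0.102, 0.0639 and 0.0724 TGFB2 counts in treated libraries, against 0.00921, 0.00583 and 0.0155 in vehicle libraries. Per length of the longest transcript the ratio was at most 0.0556 after treatment and at most 0.00849 in vehicle, so that TGFB1 stayed the more abundant in every library. For INHBA over TGFB1 the ratios were 0.473, 0.315 and 0.322 after treatment and 0.0559, 0.0414 and 0.0833 in vehicle. Both ratios were separated completely, with log2 differences of 3.05 and 2.65 between groups. The exact two-sided permutation test gave p = 0.1 for each, the smallest value that 3 against 3 libraries allow. In all, 8 such ratios were computed, and 7 did not overlap between groups, each at an exact permutation p = 0.1 (0.114 after Benjamini-Hochberg adjustment over the 8). The share for other pairs of genes was not computed, and 67.0% of all tested genes did not overlap when taken singly. TGFB1 has a GC content of 63.5% and TGFB2 and INHBA have 38.9% and 39.1%, and the difference between the log2 fold changes of the 2 genes was 1.36 for TGFB2 over TGFB1 and 0.88 for INHBA over TGFB1 after GC and length correction. These differences were 1.63 and 1.25 with correction for GC content alone, and 1.46 and 2.34 with the median transcript.

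**Figure D2:**
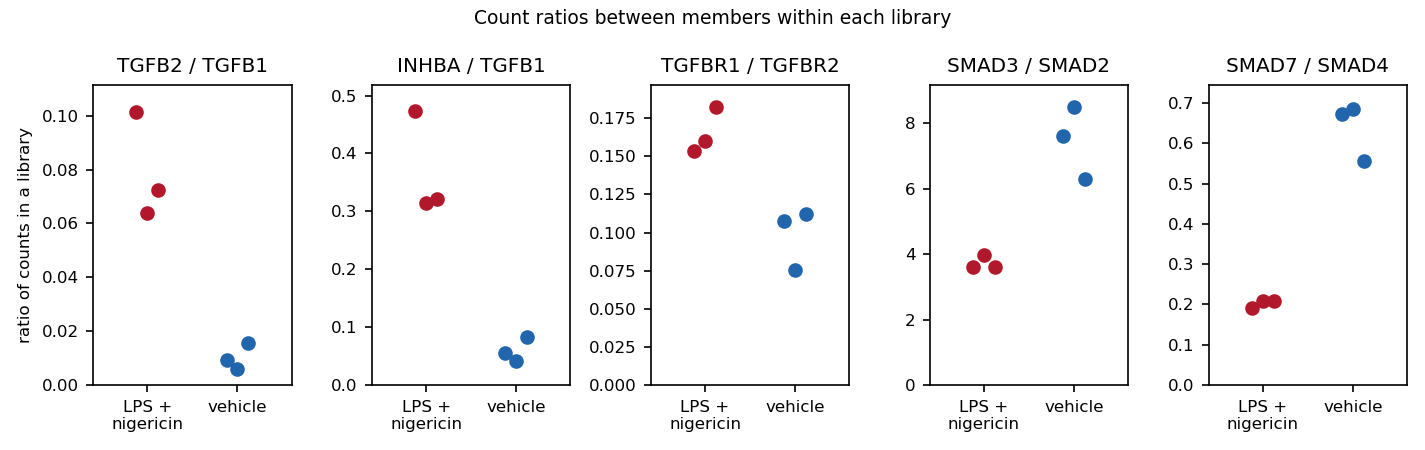
Ratio of the counts of 2 genes within each library (vertical axes, from 0), with LPS plus nigericin left of vehicle and 1 point for each of the 3 libraries. TGFB2 over TGFB1, INHBA over TGFB1 and TGFBR1 over TGFBR2 are higher in all treated libraries. SMAD3 over SMAD2 and SMAD7 over SMAD4 are lower in all of them. For these last pairs the differences between log2 fold changes were -0.05 and -0.32 after GC and length correction. They were 0.59 and 0.22 with the median transcript, and -0.32 and -0.58 with correction for GC content alone.

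The 250 bases before and 50 after the annotated start are shown for TGFB1 and TGFB2, the genes with the lowest and the highest log2 fold change of the 10 before correction, for INHBA, and for SKIL, the inhibitor that rose. Each of these 4 has a single start in RefSeq's GRCh38.p14 promoter table, in which all 10 genes were found. They read 5′ to 3′ on the gene's own strand, and lie at chr19:41353873-41354172 (TGFB1, minus strand), chr1:218345086-218345385 (TGFB2, plus strand), chr7:41703041-41703340 (INHBA, minus strand) and chr3:170357465-170357764 (SKIL, plus strand). Capitals mark the SMAD-binding element CAGAC, the GC box GGGCGG and the cyclic AMP response element TGACGTCA, each searched on both strands, so that GTCTG and CCGCCC are matches on the other strand. None of these 3 motifs lies within another. The RefSeq starts can differ from the GENCODE gene spans used elsewhere in the text. The TGFB2 window ends before the GENCODE start at 218346235, and the INHBA window lies inside the GENCODE span, which begins at 41705834 on the minus strand.
TGFB1: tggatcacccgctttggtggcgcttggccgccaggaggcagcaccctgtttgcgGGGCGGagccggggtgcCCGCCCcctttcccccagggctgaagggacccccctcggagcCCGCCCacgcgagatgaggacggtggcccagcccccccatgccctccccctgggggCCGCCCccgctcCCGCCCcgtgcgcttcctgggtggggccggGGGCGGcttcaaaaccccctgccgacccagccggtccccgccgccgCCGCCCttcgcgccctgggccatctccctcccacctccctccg
TGFB2: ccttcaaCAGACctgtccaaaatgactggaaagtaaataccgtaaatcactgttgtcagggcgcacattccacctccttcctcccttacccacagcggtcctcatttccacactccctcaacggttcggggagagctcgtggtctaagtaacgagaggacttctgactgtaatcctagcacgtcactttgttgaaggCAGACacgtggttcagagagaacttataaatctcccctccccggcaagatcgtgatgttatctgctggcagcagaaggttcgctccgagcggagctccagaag
INHBA: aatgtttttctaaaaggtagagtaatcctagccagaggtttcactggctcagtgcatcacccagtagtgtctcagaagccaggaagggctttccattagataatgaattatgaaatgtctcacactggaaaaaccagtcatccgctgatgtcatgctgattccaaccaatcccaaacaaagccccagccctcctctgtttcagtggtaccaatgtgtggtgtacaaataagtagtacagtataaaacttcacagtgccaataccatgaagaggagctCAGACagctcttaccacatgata
SKIL: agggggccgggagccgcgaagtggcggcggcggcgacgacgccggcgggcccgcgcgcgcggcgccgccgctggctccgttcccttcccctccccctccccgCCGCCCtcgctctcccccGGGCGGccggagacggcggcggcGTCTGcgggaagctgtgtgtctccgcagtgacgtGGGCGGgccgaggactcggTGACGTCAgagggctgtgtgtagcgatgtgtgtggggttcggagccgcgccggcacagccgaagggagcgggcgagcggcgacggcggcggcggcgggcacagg
The TGFB1 window had 7 GC boxes, a GC content of 77.3% and no CAGAC. The TGFB2 window had 2 CAGAC elements, no GC box and a GC content of 51.7%, and the INHBA window had 1 CAGAC and a GC content of 43.3%. SKIL had 1 CAGAC, 3 GC boxes and 1 TGACGTCA. Of the first-listed windows of the 10 genes, 6 held CAGAC, against 45.0% of all 27305 first-listed promoters of this length. A GC box was in 5 of the 10 (44.6% of all promoters), and TGACGTCA in 1 (1.98%). The AP-1 site TGAGTCA (4.92%) and the palindromic SMAD element GTCTAGAC (0.201%) were in none of the 10. A match is a run of letters and not a shown binding site.

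Both receptor genes rose. TGFBR1, the type I receptor kinase, was at 19.9, 17.4 and 19.98 CPM after treatment, against 6.89, 3.83 and 9.57 CPM in vehicle. The treated libraries agreed within 1.47 CPM (SD), whereas the vehicle libraries varied more, by 2.87 CPM. The log2 fold change was 1.496 (SE 0.301, 95% interval 0.80 to 2.19, edgeR adjusted p = 0.00400), or 1.21 without vehicle library 2. TGFBR2, the type II receptor that binds the ligand first, had 130, 109 and 110 CPM in treated libraries and 63.9, 51.0 and 85.4 CPM in vehicle libraries. Its log2 fold change was 0.80 (SE 0.190, edgeR adjusted p = 0.00839). After GC and length correction TGFBR1 was at 0.57 and TGFBR2 at 0.46, and both were still called higher. With the median transcript TGFBR2 was at 0.21 and not called (edgeR adjusted p = 0.132). TGFBR1 counts were 0.153, 0.160 and 0.182 of TGFBR2 counts after treatment and 0.108, 0.0752 and 0.112 in vehicle (log2 difference 0.77, exact permutation p = 0.1). With GC contents of 39.0% for TGFBR1 and 47.4% for TGFBR2, the difference between their log2 fold changes was 0.11 after GC and length correction. It was 0.24 with correction for GC content alone and 0.30 with the median transcript.

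The transducers did not move together in the uncorrected values. After GC and length correction SMAD2 and SMAD3 were both called lower, at -0.45 and -0.50. With the median transcript SMAD3 was at 0.14 and not called. SMAD2 was at 47.7, 41.2 and 43.2 CPM after treatment and 25.03, 23.0 and 29.6 CPM in vehicle, and its log2 fold change was 0.77 (SE 0.140, edgeR adjusted p = 0.00259) but -0.45 after GC and length correction (edgeR adjusted p = 0.00727). SMAD4, the common partner, was at 25.8, 23.0 and 22.4 CPM and at 11.7, 7.21 and 14.2 CPM. It rose by 1.11 on the log2 scale (SE 0.238, edgeR adjusted p = 0.00533), and by 0.88 without vehicle library 2, but was at 0.14 and not called after GC and length correction (edgeR adjusted p = 0.369). SMAD3 had 172, 164 and 155 CPM in treated libraries and 190, 195 and 186 CPM in vehicle libraries. Its groups did not overlap, but the difference was small and did not pass the threshold, at -0.22 on the log2 scale (SE 0.0981, 95% interval -0.45 to 0.005, edgeR adjusted p = 0.0880). By DESeq2, which called 59.7% of the 19150 genes it gave an adjusted p, 30.6% higher and 29.1% lower, SMAD3 passed (DESeq2 adjusted p = 0.0423), and over all 19 alternatives its adjusted p ran from 9.93e-04 (GC and length correction) to 1.0 (against a 1.5-fold change).

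For each SMAD2 count there were 3.61, 3.97 and 3.6 SMAD3 counts after treatment and 7.61, 8.49 and 6.29 in vehicle. The mean ratio was 3.73 ± 0.214 in treated and 7.46 ± 1.11 in vehicle libraries (SD, n = 3; log2 difference -0.99, exact permutation p = 0.1). The GC contents were 50.4% for SMAD3 and 40.2% for SMAD2. The difference between their log2 fold changes was -0.05 after GC and length correction and 0.59 with the median transcript. It was -0.32 with correction for GC content alone, so whether the lower proportion in treated libraries was kept depended on the correction.

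Of the 2 inhibitors, SKIL rose in the uncorrected values, with its call lost after GC and length correction, and SMAD7 did not pass. SKIL, which recruits repressor complexes to SMAD-bound DNA, had 33.2, 29.5 and 27.98 CPM after treatment, against 13.7, 11.4 and 19.8 CPM in vehicle. The log2 fold change was 1.01 (SE 0.211, 95% interval 0.53 to 1.498, edgeR adjusted p = 0.00471), with a transcript of 33.4% GC, lower than that of all but 0.6% of tested genes. After GC and length correction SKIL was at 0.055 (edgeR adjusted p = 0.705). SMAD7 was at 4.96, 4.78 and 4.69 CPM in treated libraries and 7.82, 4.94 and 7.88 CPM in vehicle libraries. Its vehicle library 2 lay inside the treated range, and 2 of the vehicle libraries lay well above it. The log2 fold change was -0.52 (SE 0.216, 95% interval -1.02 to -0.02 before adjustment, edgeR adjusted p = 0.0729). Without vehicle library 2, SMAD7 was at -0.71 (edgeR adjusted p = 0.00534), and DESeq2 called it at adjusted p = 0.0331. For each SMAD4 count there were 0.203 ± 0.00951 SMAD7 counts after treatment and 0.638 ± 0.0713 in vehicle (log2 difference -1.65). After GC and length correction the difference between their log2 fold changes was -0.32. It was 0.22 with the median transcript and -0.58 with correction for GC content alone, beside GC contents of 58.7% for SMAD7 and 41.1% for SMAD4.

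In all, 9 of the 10 genes had groups that did not overlap, as did 67.0% of all tested genes. TGFB2 and INHBA had the largest fold changes of the 10 and TGFB1 was the only one called lower. All 7 members at or under 47.4% GC were at positive log2 fold changes, and the other three, TGFB1 (63.5%), SMAD7 (58.7%) and SMAD3 (50.4%), were at negative ones, all before correction.

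**Figure D3:**
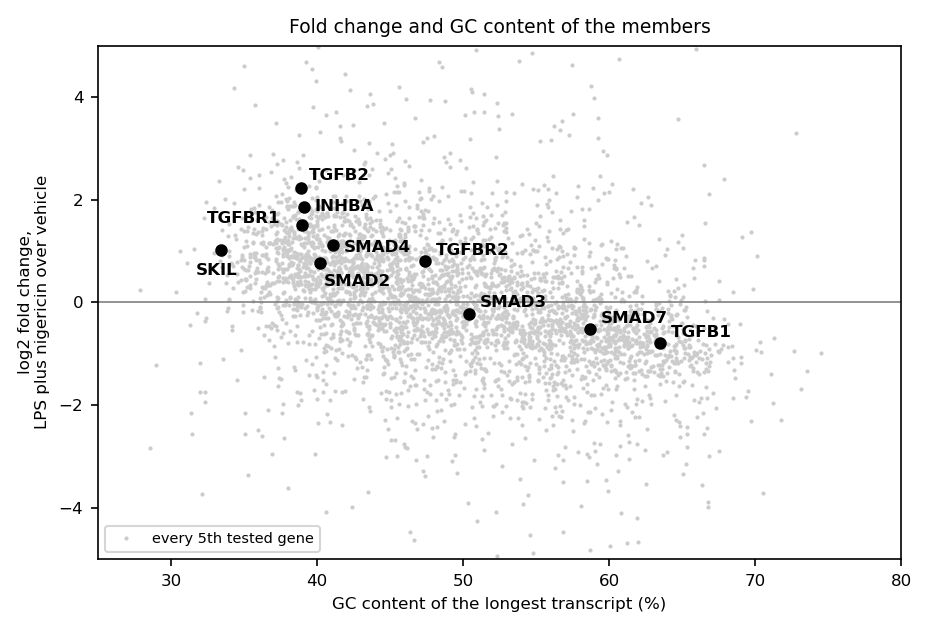
Log2 fold change (vertical axis, LPS plus nigericin over vehicle) against the GC content of the longest transcript in percent (horizontal axis). Black points are the 10 genes and grey points a regular sample of the other tested genes. The 7 genes called higher lie at or under 47.4% GC and TGFB1 at 63.5%, along the slope of the grey points; after GC and length correction SMAD2 was lower and TGFB1 near 0.

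Correction for composition separated the 10 genes into those that kept their difference and those that did not. TGFB2 was at 1.36 with GC content and the length of the longest transcript (edgeR adjusted p = 2.2e-05), at 1.51 with GC content alone, and at 1.24 with the transcript of median length. INHBA was at 0.89, 1.12 and 2.12 in the same order, and its median transcript has 56.0% GC against 39.1% for the longest. TGFBR1 was at 0.57, 0.82 and 0.51, and all values of these genes passed the threshold. TGFBR2 was at 0.46 and 0.57 and passed, and at 0.21 with the median transcript did not (edgeR adjusted p = 0.132). SMAD4 and SKIL, not called with the longest transcript, passed with GC content alone, at 0.49 and 0.34. SMAD2 was at -0.45, 0.07 and -0.45, and TGFB1 was at 0.007, -0.12 and -0.22 and passed in none of the 3. SMAD3 was at -0.50 (edgeR adjusted p = 9.93e-04), -0.25 and 0.14, and SMAD7 at -0.18, -0.09 and 0.22, so the direction of these 2 depended on the transcript model. The correction with GC content alone and the one with the median transcript were chosen after seeing the data.

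**Figure D4:**
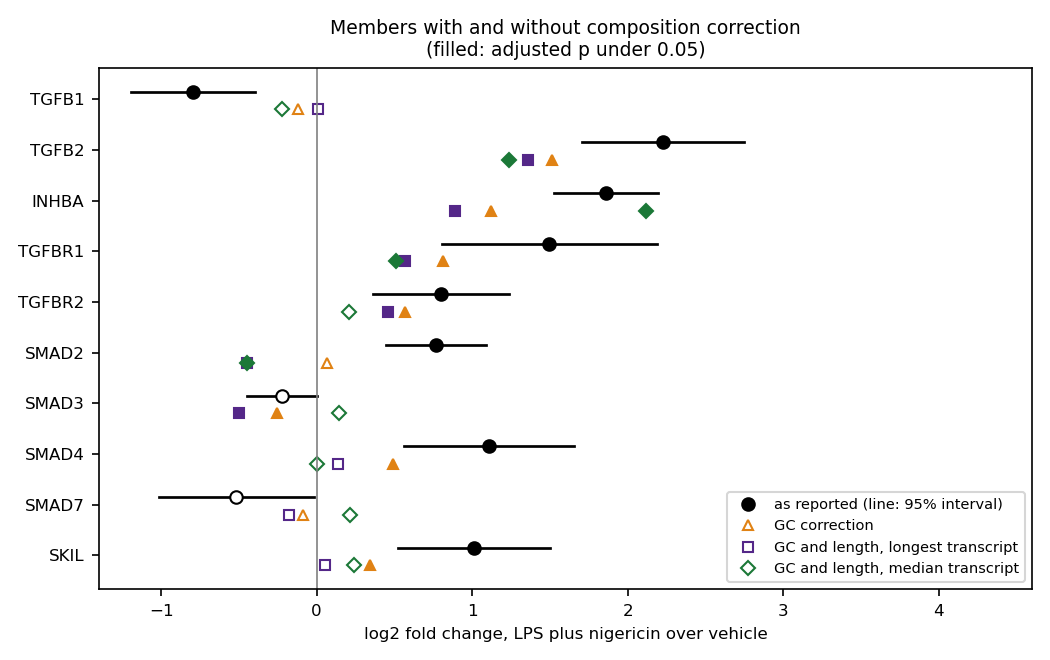
Log2 fold change of each gene, LPS plus nigericin over vehicle (horizontal axis). Black circles and lines are the uncorrected values with 95% intervals, triangles are corrected for GC content, and squares and diamonds for GC content and transcript length with 2 choices of transcript; filled symbols have an adjusted p under 0.05. TGFB2, INHBA and TGFBR1 are filled and above 0 in all 4, while SMAD2 changes sign and TGFB1 lies near 0 once corrected.

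TGFB1 (ENSG00000105329) spans 41301587 to 41353911 on the minus strand of chromosome 19 in GRCh38, in 8 exon blocks, and shares 215 bases of exon with HNRNPUL1 on the other strand. HNRNPUL1 was at 379 ± 5.28 CPM after treatment and 371 ± 7.40 CPM in vehicle and did not pass (edgeR adjusted p = 0.800). TGFB2 (ENSG00000092969, 218346235 to 218444619 on chromosome 1, plus strand) shares 1371 bases with TGFB2-OT1, a transcript of its 3′ end, which was at 0.400 ± 0.0214 CPM and 0.134 ± 0.0458 CPM. INHBA (ENSG00000122641, chromosome 7, minus strand, 41667168 to 41705834) shares exon bases with no other GENCODE 29 gene. The receptor genes lie on chromosome 9 (TGFBR1, 99104038 to 99154192) and chromosome 3 (TGFBR2, 30606502 to 30694142). SMAD2, SMAD7 and SMAD4 lie on chromosome 18, with lower coordinates of 47808957, 48919853 and 51028394, SMAD3 on chromosome 15 at 67063763 and SKIL on chromosome 3 at 170357678. SMAD3 shares 182 exon bases with an antisense gene (mean 0.0723 CPM after treatment and 0.0832 CPM in vehicle), and SMAD4 shares 967 with a gene on its own strand (mean 0.111 CPM after treatment and no counts in vehicle). Whether the counting used strand is not stated, so reads of overlapping genes cannot be told apart.

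By a rule applied to each extreme, the genes whose levels over the 6 libraries were most like those of TGFB2 were ATF1, KPNA4 and WDR47 (Pearson's r of log2 CPM 0.9997, 0.9995 and 0.9995, among 598 candidates with a similar difference between groups). For TGFB1 they were CHPF, KIAA0930 and RAPGEF3 (r from 0.9996 to 1.0000 among 3992 candidates). With 6 libraries in 2 groups and candidates chosen for a similar group difference, such values are descriptions only. ATF1 was at 31.3, 25.9 and 27.4 CPM after treatment and 7.58, 5.86 and 9.77 CPM in vehicle.

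The rest of the pathway was described with 9 lists of 145 further genes in all, of which 126 were tested. Of these, 61 were called higher, 24 lower and 41 not called, so that 48.4% were higher and 19.0% lower, beside 28.9% and 26.4% of all tested genes. After GC and length correction 52 were higher and 25 lower. Of the 85 called, 43 were higher and 20 lower under both, 22 lost the call and 0 had the opposite call. LTBP2, PMEPA1, TGIF1, ITGB6 and SMAD6 stand in 2 lists each.

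Of 23 other ligand genes 14 were tested, 5 were higher, 2 lower and 7 not called (median log2 fold change 0.39, and 8 higher and 2 lower after GC and length correction, median 0.80). BMP4, a bone morphogenetic protein, fell to 2.39 ± 0.145 CPM after treatment, against 10.5 ± 0.726 CPM in vehicle (SD, n = 3 each; log2 fold change -2.14, SE 0.164, edgeR adjusted p = 7.7e-05). BMP2 went the other way, at 2.37 ± 0.627 CPM and 0.783 ± 0.125 CPM (1.597 on the log2 scale). BMP8A, a close relative of BMP8B with which reads could be shared, was at 6.14 ± 1.42 CPM and 0.624 ± 0.220 CPM (3.30 on the log2 scale). It also shares 267 exon bases with PPIEL on the other strand, and the source of its counts was not tested. GDF9, known as an oocyte growth factor, had 1174, 1013 and 1094 counts in treated libraries, against 33, 8 and 40 in vehicle libraries, and shares 306 exon bases with UQCRQ on the other strand, so the source of these counts was not tested. INHA, the inhibin alpha chain, which pairs with the INHBA product to form inhibin A, had 0, 0 and 12 counts after treatment and 86, 56 and 95 in vehicle (edgeR adjusted p = 0.0110). INHBA and INHA thus changed in opposite directions.

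Of 14 other receptor genes 11 were tested, 7 were higher, 1 lower and 3 not called (median 0.95). After GC and length correction 3 were higher and 1 lower (median 0.10). BMPR2, the type II receptor for bone morphogenetic proteins, was at 41.2 ± 5.37 CPM after treatment and 14.5 ± 4.24 CPM in vehicle (log2 fold change 1.502, edgeR adjusted p = 0.00117, and 0.34 with the correction). ACVR2A, an activin type II receptor, was at 8.47 ± 1.36 CPM and 3.77 ± 1.07 CPM (1.17, and 0.23 and not called with the correction), and BMPR1A at 20.6 ± 1.32 CPM and 10.7 ± 3.23 CPM (0.95, and -0.11 with the correction). ENG, the co-receptor endoglin, fell to 189 ± 19.5 CPM, against 393 ± 77.9 CPM in vehicle (-1.06, edgeR adjusted p = 0.00126, and -0.325 with the correction).

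All 4 other SMAD genes were tested. SMAD6, the inhibitor of bone morphogenetic protein signalling, fell to 2.02 ± 0.341 CPM after treatment, against 6.59 ± 0.263 CPM in vehicle (log2 fold change -1.71, edgeR adjusted p = 3.68e-04). SMAD9 was at -1.11 (edgeR adjusted p = 0.0399), and its call was lost with no count filter (edgeR adjusted p = 0.0543) and when any library other than treated library 2 was left out (0.0545 to 0.0981). SMAD5 was at 0.84 (edgeR adjusted p = 0.0362), or -0.14 with the correction, and its call was lost when vehicle library 1 or a treated library was left out (0.0612 to 0.111). SMAD1 did not pass (0.36).

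Among 15 tested genes of latency and activation 7 were higher, 4 lower and 4 not called (median 0.38), or 7 higher and 2 lower after GC and length correction (median 0.63). ITGB8, whose product pairs with the ITGAV product to activate latent TGF-beta, was at 28.4 ± 4.63 CPM after treatment and 6.53 ± 2.83 CPM in vehicle (log2 fold change 2.12, edgeR adjusted p = 0.00101, and 1.06 with the correction). THBS1, which encodes thrombospondin 1, another activator, was at 578 ± 128 CPM and 176 ± 70.5 CPM, and ITGB1 at 768 ± 94.0 CPM and 224 ± 77.2 CPM. Their log2 fold changes of 1.72 and 1.78 were 1.06 and 1.08 with the correction. NRROS, which anchors latent TGF-beta in myeloid cells, fell to 1.08 ± 0.260 CPM, against 6.37 ± 0.775 CPM (-2.56, and -1.89 with the correction). It shares 222 exon bases with PIGX on its own strand. The latent TGF-beta binding protein genes LTBP4 and LTBP3 fell by 1.10 and 0.83 on the log2 scale, LTBP4 was at -0.50 with the correction, and LTBP3 lost its call with the correction (edgeR adjusted p = 0.0585).

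Of 6 tested extracellular inhibitor genes 3 were higher, 1 lower and 2 not called (median 0.91), or 4 higher and 1 lower after GC and length correction (median 1.00). FST, which encodes the activin-binding protein follistatin, was at 446 ± 52.6 CPM after treatment, against 146 ± 7.89 CPM in vehicle (log2 fold change 1.61, SE 0.123, edgeR adjusted p = 7.7e-05). FST counts were 3.71, 5.48 and 4.79 for each INHBA count in treated libraries and 5.53, 6.74 and 4.56 in vehicle libraries, and these ratios overlapped (log2 difference -0.27, exact permutation p = 0.4). The difference between the log2 fold changes of FST and INHBA was 0.45 after GC and length correction. It was 0.06 with correction for GC content alone and -0.91 with the median transcript, so its direction depended on the correction. FSTL1 rose by 1.61 on the log2 scale (corrected 0.93) and FBN1, fibrillin 1, by 0.76, although FBN1 was at 0.058 with the correction and at -0.034 with the median transcript, and NOG, the antagonist noggin, fell by 1.79 (-1.17 with the correction).

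All 26 intracellular modulators were tested, with 14 higher, 5 lower and 7 not called (median 0.71). After GC and length correction 8 were higher and 7 lower (median 0.18). SMURF2, a ubiquitin ligase that acts with SMAD7 on the receptors, was at 128 ± 7.32 CPM after treatment and 48.0 ± 6.35 CPM in vehicle (log2 fold change 1.42, edgeR adjusted p = 1.47e-04, and 0.46 with the correction). TAB2 and TAB1, adaptors of the kinase TAK1 in the branch that does not use SMADs, moved apart, at 1.83 and -1.14, or 0.997 and -0.57 with the correction. The deubiquitinase genes USP15 and USP11 did so too, at 1.43 and -0.94, and USP15 lost its call with the correction. TGIF1, a co-repressor of SMADs, fell to 19.1 ± 3.02 CPM, against 44.6 ± 7.52 CPM in vehicle (-1.23).

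Of 17 nuclear partner genes 10 were higher, 3 lower and 4 not called (median 0.65), or 7 higher and 4 lower after GC and length correction (median 0.10). JUN, an AP-1 subunit, was at 434 ± 52.9 CPM after treatment and 104 ± 12.04 CPM in vehicle. ATF3 was at 91.1 ± 6.90 CPM and 7.34 ± 2.69 CPM, and the co-activator gene CREBBP at 140 ± 27.7 CPM and 32.1 ± 4.98 CPM. MYC, which TGF-beta is known to repress in epithelial cells, fell to 13.6 ± 0.238 CPM, against 64.8 ± 9.52 CPM. FOXH1, a partner in activin responses, had 21, 16 and 6 counts and 94, 214 and 96 counts, at -3.08 on the log2 scale and -2.195 with the correction, and shares 791 exon bases with KIFC2. E2F4 was at -0.52, and at 0.10 with the correction.

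**Figure D5:**
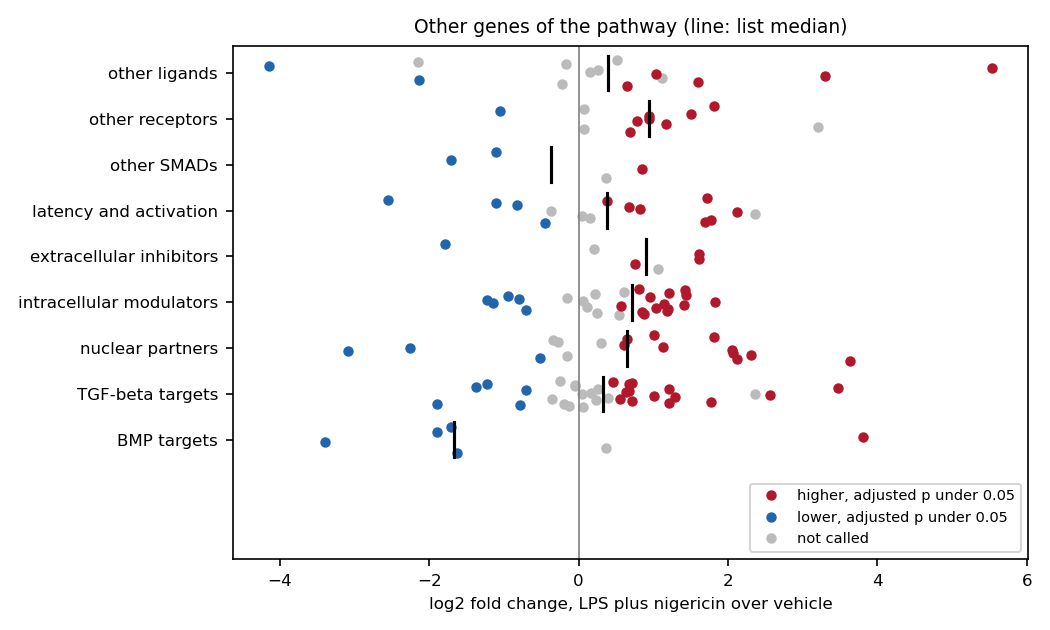
Log2 fold change (horizontal axis, LPS plus nigericin over vehicle, uncorrected) of the tested genes of 9 lists (rows). Red and blue points are genes called higher and lower at an adjusted p under 0.05, grey points are not called, and the black line is the median of the list. The median is above 0 in 7 lists and lowest for the targets of bone morphogenetic proteins, at -1.67; after GC and length correction it is above 0 in the same 7.

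Known TGF-beta target genes showed no single direction. Of 32, all tested, 14 were higher, 5 lower and 13 not called, with a median log2 fold change of 0.33 (15 higher, 5 lower and a median of 0.32 with the correction). IL11 was at 126 ± 13.9 CPM after treatment and 21.3 ± 1.70 CPM in vehicle (log2 fold change 2.56), SNAI1, a repressor of epithelial genes, at 27.7 ± 1.70 CPM and 2.50 ± 0.540 CPM (3.47), and CDH2, N-cadherin, at 117 ± 14.7 CPM and 34.1 ± 6.22 CPM (1.78). BHLHE40 and PMEPA1, a target that in turn limits the pathway, fell by 1.90 and 0.71.

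Targets of bone morphogenetic proteins were mostly lower. Of 6 tested, 4 fell, 1 rose and 1 was not called, with and without the correction. ID1, an inhibitor of helix-loop-helix factors, fell to 13.6, 19.0 and 16.5 CPM after treatment, against 190, 150 and 175 CPM in vehicle. That gap was many times the spread of either group (log2 fold change -3.39, SE 0.168, edgeR adjusted p = 2.2e-05). ID3 fell to 20.7 ± 3.05 CPM, against 77.3 ± 12.9 CPM (-1.90). ID2 was the exception, at 8.64 ± 1.85 CPM and 0.612 ± 0.157 CPM (3.81, edgeR adjusted p = 6.9e-05).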

How the data were processed

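Per the file headers, the deposited values are raw counts for Ensembl genes in 6 library columns, and the build was hg38, per the submitters' processing notes. What aligned and counted the reads, with which annotation and strand setting, was not given in the sources used here. Library names in the labels assigned the columns, and 0 belonged to no sample. Symbols matched 37840 identifiers. Replicate pairs differed beyond counting noise, with a chi-square of 24.6 to 207 per degree of freedom. At 66180407 or more counts per library, counting error is small for genes with many counts. Replicate spread sets the precision of those genes (common biological coefficient of variation 0.268). For genes with few counts, such as INHA with 0, 0 and 12 after treatment, counting error adds to the spread.

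Genes were filtered with filterByExpr, scaled with TMM factors and tested with edgeR 4.0.16 (R 4.3.3, robust quasi-likelihood F test, group as the only term), adjusted over all 19170 tested genes. Standard errors are the log2 fold change over the square root of F, and intervals use the test's degrees of freedom. CPM use TMM-scaled library sizes. GC content, lengths and coordinates came from GENCODE 29 (18620 tested genes), and the correction used per-library loess offsets (span 0.3). Alternatives used DESeq2 1.42.0, limma 3.58.1, other scalings and filters, glmTreat, a replicate block and leaving out each library. The genes, lists and naming rule (at most 3 called genes in each direction per list) were chosen with earlier results of these data known. The scripts were tested on simulated data. The values of 1 gene of the target list are not reported here.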

Additional observations from a re-analysis of the deposited data

How the results depend on the processing

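The count of the 10 genes called higher was 7 under RLE factors, library totals, DESeq2, limma-voom, no filter, a filter of 1 CPM in 3 libraries, the replicate block, removal of mitochondrial and rRNA genes, and each left-out library. It was 5 by glmTreat against 1.5-fold, 6 after GC correction alone, 4 after GC and length correction, 4 with that correction plus the replicate block and 3 with the median transcript. Called lower were 2 with library totals, 3 with DESeq2, 2 with the correction, 2 with the correction plus the block, and 0 by glmTreat, and 1 to 2 when 1 library was left out (2 without vehicle library 2, where SMAD7 passed). By glmTreat 3325 of all tested genes were higher and 2690 lower, and 39 pathway genes were higher; that test asks for a larger change by construction. Of the 2 corrections, the first put TGFB1 at 0.007 (0.008 with the block), SMAD2 at -0.45 (-0.44), BMPR1A at -0.11 (-0.11), SMAD5 at -0.14 (-0.13) and E2F4 at 0.10 (0.12), and the median-transcript one put SMAD2 at -0.45, SMAD3 at 0.14, SMAD7 at 0.22, BMPR1A at -0.19, SMAD5 at -0.19 and FBN1 at -0.034. These changes come from the GC and length terms, and whether the trend is technical was not tested. Same-numbered libraries deviated from their group means with correlations of -0.024 to 0.096, so these deviations showed no pairing by number. With 3 libraries per group they cannot exclude that same-numbered libraries were handled together. With the replicate block alone no call among the 10 changed (7 higher, 1 lower).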
